A study of Mus musculus with 8 samples.

Results

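The ADAMTS proteases are secreted zinc metalloproteinases that cut proteoglycans and glycoproteins of the extracellular matrix. They were studied here in murine oviductal epithelial (MOE) cells, a mouse line derived from the oviduct, the counterpart of the human fallopian tube. The 10 genes described, chosen by gene symbol, were Adamts1, Adamts4, Adamts5, Adamts6, Adamts7, Adamts9, Adamts10, Adamts12, Adamts15 and Adamts17, out of 23337 gene symbols measured by RNA sequencing. Cells were plated on 3D collagen gels (4 libraries) or on 2D collagen (4 libraries). All 8 libraries came from 1 cell line of FVB mouse background, were collected at confluence with trypsin before plating, and were kept for 6 h in medium lacking EGF. The labels do not state whether replicates were separate cultures, and p-values therefore reflect only the spread among these 8 libraries, which can be technical. In bulk RNA, fewer cells that express a gene and less RNA per cell cannot be told apart.

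An ADAMTS protease is made with a propeptide that proprotein convertases such as furin remove, and it carries thrombospondin repeats that bind it to the matrix. ADAMTS1, ADAMTS4, ADAMTS5, ADAMTS9 and ADAMTS15 cut the large hyaluronan-binding proteoglycans such as versican and aggrecan, and ADAMTS4 and ADAMTS5 are known as the aggrecanases. ADAMTS6, ADAMTS10 and ADAMTS17 are tied to fibrillin microfibrils, and ADAMTS7 and ADAMTS12 cut cartilage oligomeric matrix protein. In the female reproductive tract of mice, ADAMTS1 is known for its part in ovulation.

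Depth ranged from 15692699 to 25862036 reads per library. The first principal component held 48.3% of the variance and set 2D replicate 2 and 3D replicate 4 at its opposite ends, with the other libraries of both groups between them. Of the epithelial markers Krt8, Krt18 and Krt19 were abundant. Krt8 fell, with 16941 to 24341 normalized counts in 3D libraries and 27443 to 40598 in 2D libraries (log2 fold change −0.76, limma adjusted p = 0.0397). Krt18, Krt19 and Cdh1 did not pass, at −0.43, −0.11 and −0.08 (limma adjusted p = 0.136, 0.886 and 0.956). Cldn4 went the other way, at 0.52 (limma adjusted p = 0.547). Epcam was at 0 to 21.0 in 3D libraries and 1.95 to 29.9 in 2D libraries. The oviductal factor Pax8 was at 7427 to 11042 in 3D libraries and 8981 to 11569 in 2D libraries (log2 fold change −0.12). The other 3 listed oviductal markers leaned higher on 3D collagen, with Wt1 at 0.36, Esr1 at 0.32 and Ovgp1 at 0.76. None of these 4 genes passed in limma. Ovgp1 was low in both groups, with 7.86 to 27.2 normalized counts in 3D libraries and 1.19 to 18.4 in 2D libraries. The summed list of 5 ciliated-cell markers spanned 378 to 1277 in 3D libraries and 1236 to 2118 in 2D libraries. Most of it in the 2D libraries was Foxj1 (161 to 1028 in 3D libraries, 1009 to 1843 in 2D libraries, log2 fold change −1.70, limma adjusted p = 0.0706). Rsph1 and 1700009P17Rik, the other tested markers of this list, leaned the opposite way without passing, at 0.44 and 0.29 (limma adjusted p = 0.337 and 0.8). Of the 6 fibroblast markers 3 were tested and Pdgfra, at low counts, rose (14.9 to 19.3 in 3D libraries, 2.37 to 7.35 in 2D libraries, limma adjusted p = 0.0340). The collagen gene Col1a1 averaged 41.6 in 3D libraries and 72.5 in 2D libraries (log2 fold change −0.73, limma adjusted p = 0.253), and Col1a2 (1.17 and 5.46) and Pdgfrb (2.57 and 5.52) were too low to be tested. The summed fibroblast list spanned 67.7 to 333 normalized counts in 3D libraries and 57.6 to 371 in 2D libraries, and Lum was at 0 in 3 libraries of each group. The summed macrophage list spanned 442 to 716 in 3D libraries and 400 to 812 in 2D libraries. Csf1r was at 127 to 222 in 3D libraries and 252 to 433 in 2D libraries (log2 fold change −0.92, limma adjusted p = 0.0813). Cd68 went the other way, at 314 to 560 in 3D libraries and 135 to 373 in 2D libraries (log2 fold change 0.73, limma adjusted p = 0.207). Ptprc, Emr1 and Lyz2 were at a few reads or none. The summed list of 8 intestinal genes spanned 117 to 217 in 3D libraries and 161 to 313 in 2D libraries, highest in 2D replicate 2. Its largest part in every library was Mttp, at 83.8 to 151 in 3D libraries and 102 to 223 in 2D libraries. Apoa1 was at 96.8 in 2D replicate 2 and at 53.2 and 61.1 in 3D replicates 1 and 2. In the other libraries Apoa1 was at 0.933 to 22.1. The part of these markers in the ADAMTS values was not tested.

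On 3D collagen, Adamts1 and Adamts4 rose. No member fell past the threshold in limma as reported, in edgeR or in DESeq2. Adamts5 or Adamts6 did so in some alternative limma fits given below. At an unadjusted limma p under 0.05, 1 member, Adamts5, was lower, as were 12.6% of all tested genes. Of the 10 members, 6 passed the filter on low values (at least 10 normalized counts in at least 4 libraries). These were tested with limma, with p-values adjusted over all 11820 tested genes and a threshold of 0.05. Unless another setting is named, limma means this fit. Of the 6, 2 were called, both higher, while 5.72% of all tested genes were called, 2.33% higher and 3.39% lower (275 and 401 genes). Scaled by library size alone, the median log2 fold change of all genes was 0.19, against 0.02 as reported, and 498 genes were higher and 318 lower. Adamts9 stood above in every 3D library without passing the threshold, Adamts5 and Adamts6 had negative log2 fold changes that did not pass either, and Adamts7 had nearly the same mean in both groups. Adamts10, Adamts12, Adamts15 and Adamts17 were at a few reads per library or none.

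**Figure D1:**
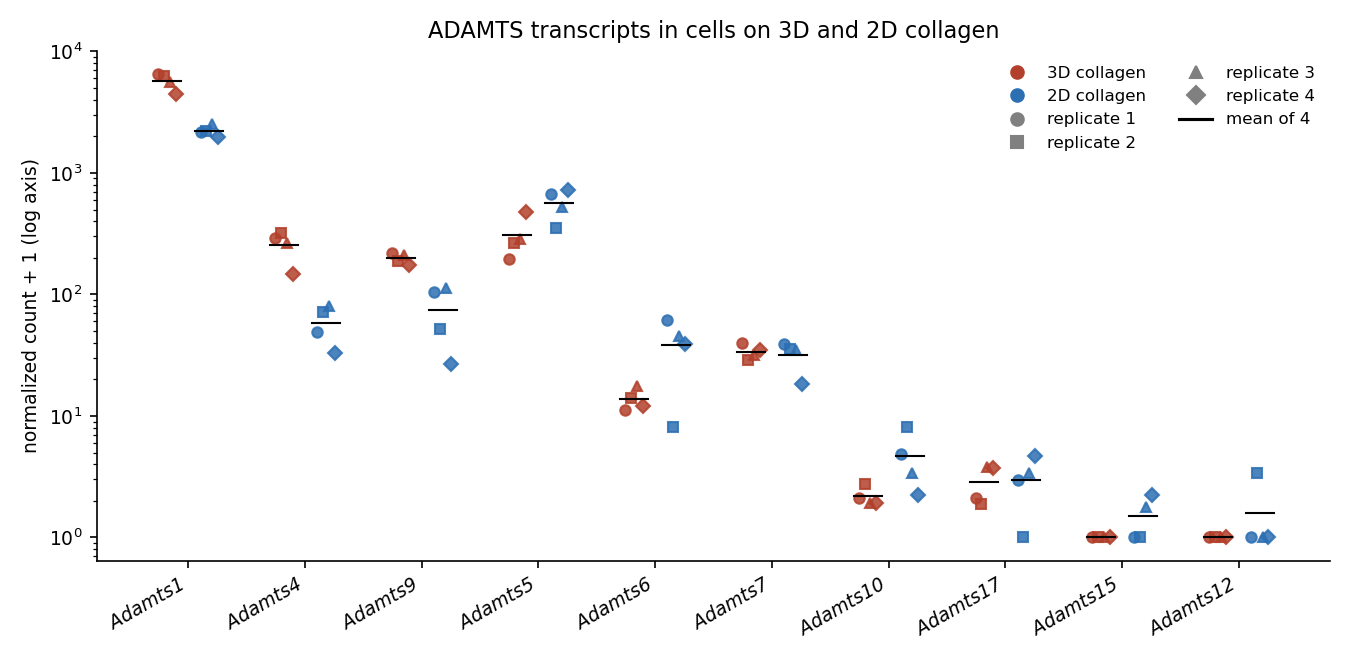
Normalized count + 1 (log axis) of the 10 ADAMTS genes in each of the 4 libraries on 3D collagen (red, left) and the 4 on 2D collagen (blue, right), with replicates by shape and group means as black bars. Adamts1, Adamts4 and Adamts9 were higher in every 3D library than in any 2D library, whereas the groups overlapped for Adamts5 and Adamts6.

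Adamts1, a protease of versican and aggrecan, lies on the minus strand of chromosome 16 (85793827 to 85803113, mm10). It had 6526, 6313, 5628 and 4461 normalized counts in 3D replicates 1 to 4, against 2166, 2227, 2514 and 1976 in 2D replicates 1 to 4. All 3D libraries were above all 2D libraries, and 3D replicate 4 was the lowest of the 3D group. The means were 5732 ± 930 in 3D libraries and 2221 ± 223 in 2D libraries (SD, n = 4 each). This is a log2 fold change of 1.36, or 2.56-fold (SE 0.16 on the log2 scale, 95% interval 1.00 to 1.72), with a limma adjusted p of 0.00331. By unadjusted p it ranked at position 37 of the 11820 tested genes. It kept its call in all 21 alternatives, with log2 fold changes from 1.29 to 1.53.

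Adamts4, the other member that rose, is an aggrecanase on the plus strand of chromosome 1 (171250421 to 171260637). It had 290, 321, 264 and 147 normalized counts in 3D replicates 1 to 4, against 47.7, 70.5, 79.1 and 31.9 in 2D replicates 1 to 4. The groups did not overlap, and the lowest library of each group was replicate 4. The means were 256 ± 76.0 in 3D libraries and 57.3 ± 21.5 in 2D libraries (SD, n = 4 each). Adamts4 changed by a log2 fold of 2.16 (SE 0.36, 95% interval 1.35 to 2.98), which is 4.48-fold and the largest increase among the 6 tested members (limma adjusted p = 0.0134). Leaving out 3D replicate 1, 2 or 3 took limma's adjusted p to 0.0509, 0.0549 and 0.0577 and so ended the call, at log2 fold changes of 2.08, 2.03 and 2.13.

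Adamts9, a versican-cutting protease on the minus strand of chromosome 6 (92772699 to 92943492), had 217, 187, 212 and 173 normalized counts in 3D replicates 1 to 4. In 2D replicates 1 to 4 it had 103, 51.4, 112 and 25.7. The 3D libraries were close together and all above the 2D libraries, which ranged from 25.7 to 112. Groups that do not overlap, in this direction, were found for 8.05% of all tested genes. The means were 197 ± 21.0 in 3D libraries and 73.0 ± 41.2 in 2D libraries. The log2 fold change was 1.63 (SE 0.44, 95% interval 0.65 to 2.62) with a limma adjusted p of 0.0607. It passed in 5 of 21 alternatives. Among these were the fits with the GC trends removed (limma adjusted p = 0.0430), with library size as the only scaling (0.0479) and in DESeq2 (0.00962). The range of adjusted p over all alternatives was 0.00962 to 0.173. Antisense gene models overlap 11.99% of its exonic bases, and the strand setting of the counting is not given in the sources used here.

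The promoters of Adamts1 and Adamts9 are shown because both genes stood higher in every 3D library. They run from 250 bases before to 50 after the start site, from RefSeq on GRCm38.p6. An entry was found for 4 of the 10 members, Adamts1, Adamts9, Adamts12 and Adamts17. Adamts4, which also stood higher in every 3D library, had none. Both lie on the minus strand, at chr16:85803064-85803363 for Adamts1 and chr6:92943485-92943784 for Adamts9. Capitals mark matches to any of 5 motifs.
Adamts1: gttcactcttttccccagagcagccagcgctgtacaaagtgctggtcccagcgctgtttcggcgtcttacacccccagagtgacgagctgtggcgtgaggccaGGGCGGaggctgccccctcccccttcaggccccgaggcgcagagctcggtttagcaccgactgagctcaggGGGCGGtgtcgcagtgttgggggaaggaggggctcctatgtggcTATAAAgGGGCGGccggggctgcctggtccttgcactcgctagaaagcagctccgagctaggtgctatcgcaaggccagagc
Adamts9: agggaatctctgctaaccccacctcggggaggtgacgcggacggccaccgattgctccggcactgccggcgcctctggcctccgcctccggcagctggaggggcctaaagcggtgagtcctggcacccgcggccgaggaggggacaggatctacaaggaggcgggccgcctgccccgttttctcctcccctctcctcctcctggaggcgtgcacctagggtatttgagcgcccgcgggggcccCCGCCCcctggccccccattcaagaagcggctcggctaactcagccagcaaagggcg
The motifs, searched on both strands, were the TATA box (TATAAA), the GC box (GGGCGG), the TEAD motif (GGAATG), the AP-1 motif (TGANTCA) and the cyclic AMP response element (TGACGTCA). In Adamts1 the TATA box began 32 bases before the start site and 3 GC boxes preceded the start, none of them overlapping another motif. In Adamts9 1 GC box lay on the opposite strand, and no TATA box was found. Among 32851 promoters of the same length 13.6% held a TATA box and 35.7% a GC box. The letters of the TEAD, AP-1 and cyclic AMP motifs, held by 14.7%, 7.81% and 1.79% of these promoters, were in neither window. The GC content of the window was 64.7% for Adamts1 and 70.0% for Adamts9, against a median of 52.7% over all promoters. The windows of the barely detected Adamts12 and Adamts17 held none of the 5 motifs and had GC contents of 62% and 55.7%.

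Adamts5, the second aggrecanase, had 194, 264, 286 and 477 normalized counts in 3D replicates 1 to 4, against 667, 352, 521 and 721 in 2D replicates 1 to 4. The groups overlapped only through 3D replicate 4, the highest of the 3D group, and 2D replicate 2, the lowest of the 2D group. The means were 305 ± 121 in 3D libraries and 565 ± 165 in 2D libraries (SD, n = 4 each). The log2 fold change was −0.91 (SE 0.32, 95% interval −1.62 to −0.20) with a limma adjusted p of 0.122, which did not pass. Without 2D replicate 2 it was −1.12 (limma adjusted p = 0.0626), and without 3D replicate 4 it was −1.15 (0.0601). With the GC trends removed it passed, at −1.11 (limma adjusted p = 0.0141), and the range over all alternatives was 0.00568 to 0.267. The longest transcript of Adamts5 has a GC content of 43.7%, and that of Adamts6 43.0%, against 49.7% to 57.8% for the other 4 tested members.

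Adamts1 and Adamts5 are neighbours on the minus strand of chromosome 16, with Adamts5 at 85856173 to 85901828 and 53059 bases between them. Their reads were counted in the same libraries, so their ratio does not depend on the scaling between libraries. There were 33.7, 23.9, 19.7 and 9.35 reads of Adamts1 per read of Adamts5 in 3D replicates 1 to 4, against 3.25, 6.32, 4.82 and 2.74 in 2D replicates 1 to 4. The median ratio was 21.8 in 3D libraries and 4.04 in 2D libraries, and the groups did not overlap. The ratio of Adamts4 to Adamts5 also separated the groups, with 1.497, 1.22, 0.922 and 0.308 in 3D replicates 1 to 4 and 0.0715, 0.200, 0.152 and 0.0442 in 2D replicates 1 to 4. For both ratios 3D replicate 4 was the 3D library nearest to the 2D group. Apart from being free of the scaling between libraries, both ratios restate the differences given above for each gene. The share of gene pairs whose ratio separates the groups was not computed. The ratio of Adamts1 to Adamts4 was 19.7 to 30.3 in 3D libraries and 31.6 to 62.0 in 2D libraries, so Adamts4 was higher relative to Adamts1 in 3D libraries. The ratio of Adamts1 to Adamts9 did not separate the groups, at 25.8 to 33.8 in 3D libraries and 21.0 to 76.8 in 2D libraries.

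Per length of merged exons, Adamts1 was by far the most abundant ADAMTS transcript, at 58.9 ± 6.26 RPKM in 3D libraries and 20.4 ± 2.35 RPKM in 2D libraries (SD, n = 4 each). Its share of the summed RPKM level of all 19 mouse ADAMTS genes was 89.6% to 91.7% in 3D libraries and 77.9% to 83.9% in 2D libraries. Next in 3D libraries came Adamts4 at 2.88 ± 0.756 RPKM and Adamts5 at 1.58 ± 0.738 RPKM, whose ranges overlapped. Next in 2D libraries came Adamts5 at 2.61 ± 0.946 RPKM. Adamts16, which is not among the 10 members, followed there at 0.763 ± 0.664 RPKM (0.0839 to 1.66), a range that overlapped those of Adamts5 and of Adamts4 at 0.571 ± 0.192 RPKM. The 2D ranges of Adamts5 and Adamts4 did not overlap. Adamts4 thus exceeded Adamts5 in 3D replicates 1 to 3 and was below it in 3D replicate 4 (1.82 and 2.63 RPKM) and in every 2D library. Adamts9 was at 0.717 ± 0.0545 RPKM in 3D libraries and 0.238 ± 0.142 RPKM in 2D libraries. With the longest transcript as its length it was at 1.35 RPKM in 3D libraries, and its range there then overlapped that of Adamts5. In 2D libraries the ranges of Adamts9, Adamts7 (0.239 RPKM), Adamts6 (0.243 RPKM) and Adamts14 (0.318 RPKM), also not a member, overlapped. In 3D libraries Adamts7 (0.286 ± 0.0359 RPKM) stood above Adamts6 (0.0902 ± 0.0230 RPKM) in every library.

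**Figure D2:**
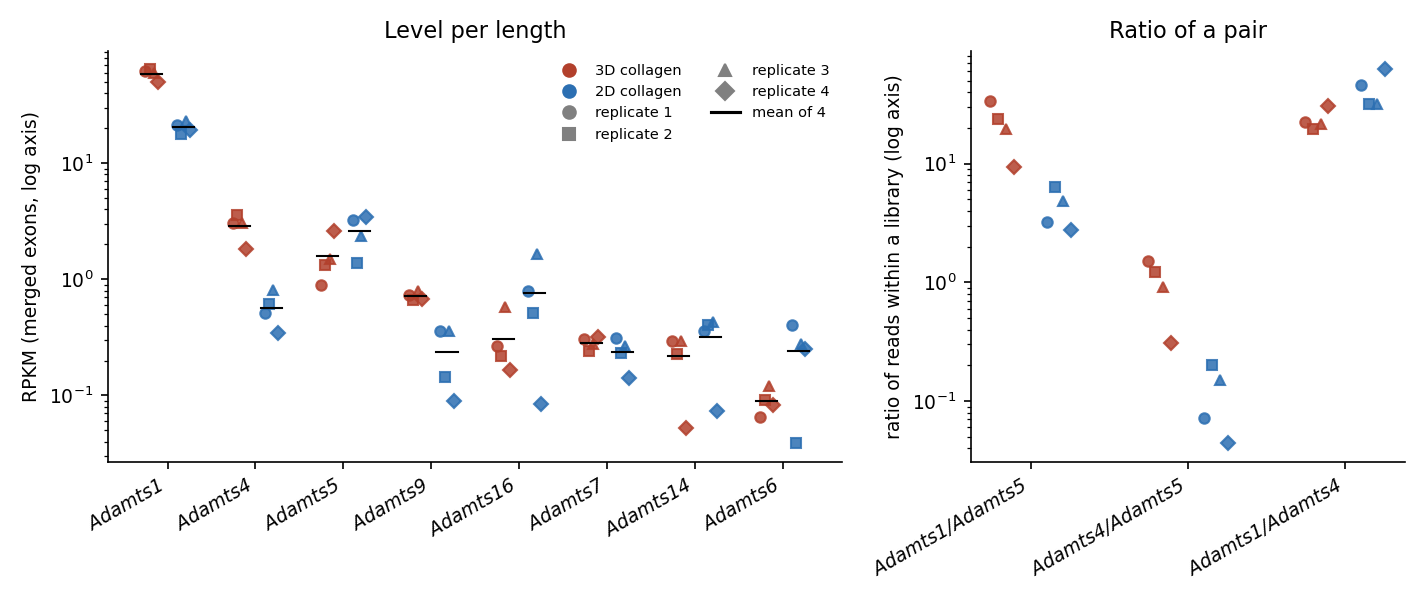
Left, RPKM (log axis) per length of merged exons for the 6 tested ADAMTS members, Adamts14 and Adamts16; right, the ratio of reads of 2 ADAMTS genes within a library (log axis); 3D libraries are red and left, 2D libraries blue and right, with replicates by shape. The Adamts1 to Adamts5 ratio was 9.35 to 33.7 in 3D libraries and 2.74 to 6.32 in 2D libraries.

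Adamts6, which acts on fibrillin microfibrils, lies on chromosome 13 (104287835 to 104496695). It had 10.2, 13.1, 16.8 and 10.97 normalized counts in 3D replicates 1 to 4, against 60.4, 7.17, 44.3 and 38.0 in 2D replicates 1 to 4. The 2D group split, with replicate 2 below every 3D library and the other 3 above all of them. The log2 fold change was −1.18 (SE 0.59, 95% interval −2.51 to 0.15, limma adjusted p = 0.258). Without 2D replicate 2 it was −1.82 and passed (limma adjusted p = 0.0201), the one alternative of 20 in which it did, and without 3D replicate 4 it was −1.12 (0.359). The counts behind these values were small, with 9 to 18 reads in 3D libraries and 6 to 62 reads in 2D libraries.

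Adamts7, a protease of cartilage oligomeric matrix protein, lies on chromosome 9 (90163069 to 90208071). It had 38.5, 27.9, 30.8 and 33.8 normalized counts in 3D replicates 1 to 4, against 38.0, 34.6, 34.0 and 17.2 in 2D replicates 1 to 4. The groups overlapped in full apart from 2D replicate 4, which was lowest. The log2 fold change was 0.13 (SE 0.32, 95% interval −0.60 to 0.86, limma adjusted p = 0.845). It was −0.12 without 2D replicate 4 (limma adjusted p = 0.809).

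The remaining 4 members were at the limit of detection and were not tested. Adamts10, tied to fibrillin microfibrils, had 1, 2, 1 and 1 reads in 3D replicates 1 to 4 and 4, 6, 3 and 1 reads in 2D replicates 1 to 4. Adamts17, known from inherited short stature and lens disease in humans, had 1, 1, 3 and 3 reads in 3D replicates 1 to 4 and 2, 0, 3 and 3 reads in 2D replicates 1 to 4. Adamts15, a further proteoglycan-cutting member, had 0 reads in the 3D libraries and 1 read each in 2D replicates 3 and 4. Adamts12, related to Adamts7, had 0 reads in the 3D libraries and 2 reads in total in the 2D libraries, both in replicate 2. A count of 0 allows up to 3 reads of a library, or 2.62 to 3.40 normalized counts in 3D libraries and 2.37 to 3.68 in 2D libraries, so no difference was detectable for Adamts12 and Adamts15 at this depth. These limits cover counting error only.

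Of the 9 other ADAMTS genes of the mouse, 2 passed the filter, Adamts14, whose product trims procollagen, and Adamts16, and 0 were called in limma, edgeR or DESeq2 or had an unadjusted limma p under 0.05. Adamts16 had 36.2, 27.9, 70.0 and 19.2 normalized counts in 3D replicates 1 to 4, against 104, 83.6, 232 and 11.03 in 2D replicates 1 to 4 (log2 fold change −1.003, limma adjusted p = 0.495). Adamts14 had 30.6, 21.8, 27.1 and 4.57 in 3D replicates 1 to 4, against 36.0, 50.2, 45.9 and 7.35 in 2D replicates 1 to 4 (log2 fold change −0.68, limma adjusted p = 0.608). Both were lowest in replicate 4 of each group, and the groups overlapped. Without 2D replicate 4 the log2 fold change was −1.85 for Adamts16 (limma adjusted p = 0.0793) and −1.28 for Adamts14 (0.236), and without 3D replicate 4 that of Adamts14 was −0.11 (0.940). Of the rest, 5 had no read in any library.

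Among the ADAMTS-like proteins, which keep the repeats but lack the protease domain, 0 of 3 tested genes passed in limma or edgeR. Adamtsl4, a fibrillin-binding protein, had 1288, 1179, 1053 and 1444 normalized counts in 3D replicates 1 to 4, against 1703, 1982, 1553 and 2574 in 2D replicates 1 to 4. The groups did not overlap, as for 10.4% of all tested genes in this direction, and the log2 fold change was −0.64 (SE 0.19, limma adjusted p = 0.0764). It was the only one of the 3 to pass in DESeq2 (adjusted p = 0.0230) or to have an unadjusted limma p under 0.05. Adamtsl5, which also binds fibrillin, averaged 487 ± 69.1 in 3D libraries and 738 ± 317 in 2D libraries (log2 fold change −0.52, limma adjusted p = 0.292), and without 2D replicate 2 its log2 fold change was −0.26 (0.498).

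Of the tested inhibitors, clearance receptors and surface regulators, 0 of 8 passed in limma or edgeR and 1, Timp3, in DESeq2, which was also the 1 with an unadjusted limma p under 0.05. The most abundant were Timp2, a metalloproteinase inhibitor, and syndecan 1 (Sdc1), with log2 fold changes of 0.04 (limma adjusted p = 0.936) and −0.15 (0.734). The sign of Sdc1 turned to 0.03 with library size as the only scaling. Timp3, the tissue inhibitor best known for blocking ADAMTS4 and ADAMTS5, was named after its values were seen. It had 259, 203, 171 and 55.8 normalized counts in 3D replicates 1 to 4, against 908, 475, 600 and 205 in 2D replicates 1 to 4. The groups overlapped only through 2D replicate 4 and 3D replicate 1, and the log2 fold change was −1.67 (SE 0.56, 95% interval −2.93 to −0.42, limma adjusted p = 0.111). Exons of Syn3, on the other strand, overlap 21.3% of its exonic bases.

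Of the enzymes that mature ADAMTS proteins, 0 of 7 tested genes passed in limma or edgeR and 1, the convertase Pcsk7, passed in DESeq2, while 3 were lower at an unadjusted limma p under 0.05, against 12.6% of all tested genes. Furin, the convertase that removes the propeptide, averaged 4122 ± 927 normalized counts in 3D libraries and 6472 ± 1807 in 2D libraries (log2 fold change −0.64, limma adjusted p = 0.145). Pofut2, which adds O-fucose to thrombospondin repeats, averaged 3627 ± 339 in 3D libraries and 4775 ± 557 in 2D libraries (log2 fold change −0.39, limma adjusted p = 0.134). Their intervals of the log2 fold change lay below 0, from −1.17 to −0.10 for Furin and from −0.71 to −0.07 for Pofut2, before any adjustment for the number of genes.

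The large proteoglycan substrates had few reads. Aggrecan (Acan) had 1 read in the 3D libraries and 0 in the 2D libraries, and brevican (Bcan) had no read. Versican (Vcan) had 18.1, 27.9, 23.3 and 88.7 normalized counts in 3D replicates 1 to 4, against 74.0, 9.56, 43.5 and 100.5 in 2D replicates 1 to 4, with full overlap of the groups (log2 fold change −0.39, limma adjusted p = 0.791). It was −0.87 without 3D replicate 4 (limma adjusted p = 0.514), −1.07 without 2D replicate 2 (0.285) and 0.02 without 2D replicate 4 (0.991). Decorin (Dcn), a small proteoglycan, had 274, 82.9, 94.2 and 13.7 in 3D replicates 1 to 4 and 299, 26.3, 61.7 and 3.68 in 2D replicates 1 to 4 (log2 fold change 0.94, limma adjusted p = 0.690). With 1 library left out at a time Decorin's log2 fold change ranged from −0.09, without 2D replicate 4, to 1.92, without 2D replicate 1. Of the 3 tested genes of this list 0 passed in limma, edgeR or DESeq2, and 0 had an unadjusted limma p under 0.05.

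Glycoprotein substrates and partners of ADAMTS proteases fell in 3 of 12 tested genes and rose in 0, while 3.39% of all tested genes were lower and 2.33% higher. At an unadjusted limma p under 0.05, 4 of the 12 were lower and 1 higher, against 12.6% and 11.7% of all tested genes. In edgeR 2 of the 12 were lower and 0 higher, and in DESeq2 4 were lower and 0 higher. Their median log2 fold change was −0.41, against 0.02 over all tested genes. Thrombospondin 1 (Thbs1), a matricellular protein that ADAMTS1 cuts, had 1495, 1290, 1225 and 629 normalized counts in 3D replicates 1 to 4, against 5472, 9558, 7287 and 2650 in 2D replicates 1 to 4. All 3D libraries were below all 2D libraries. The log2 fold change was −2.35 (SE 0.41) at a limma adjusted p of 0.0157, which became 0.0543 when 3D replicate 3 was left out. Fibronectin (Fn1), the adhesive glycoprotein of the matrix, averaged 70222 ± 11534 in 3D libraries and 146225 ± 27832 in 2D libraries (log2 fold change −1.05, limma adjusted p = 0.0205). Leaving out 2D replicate 3, 3D replicate 2 or 3D replicate 3 ended that call, with limma adjusted p of 0.0525, 0.0607 and 0.0844. The latent TGF-beta binding protein Ltbp3 averaged 13464 ± 2837 in 3D libraries and 25957 ± 7557 in 2D libraries (log2 fold change −0.93, limma adjusted p = 0.0456). It did not pass when any single library was left out (limma adjusted p from 0.0524 to 0.142) or in edgeR (0.0510).

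**Figure D3:**
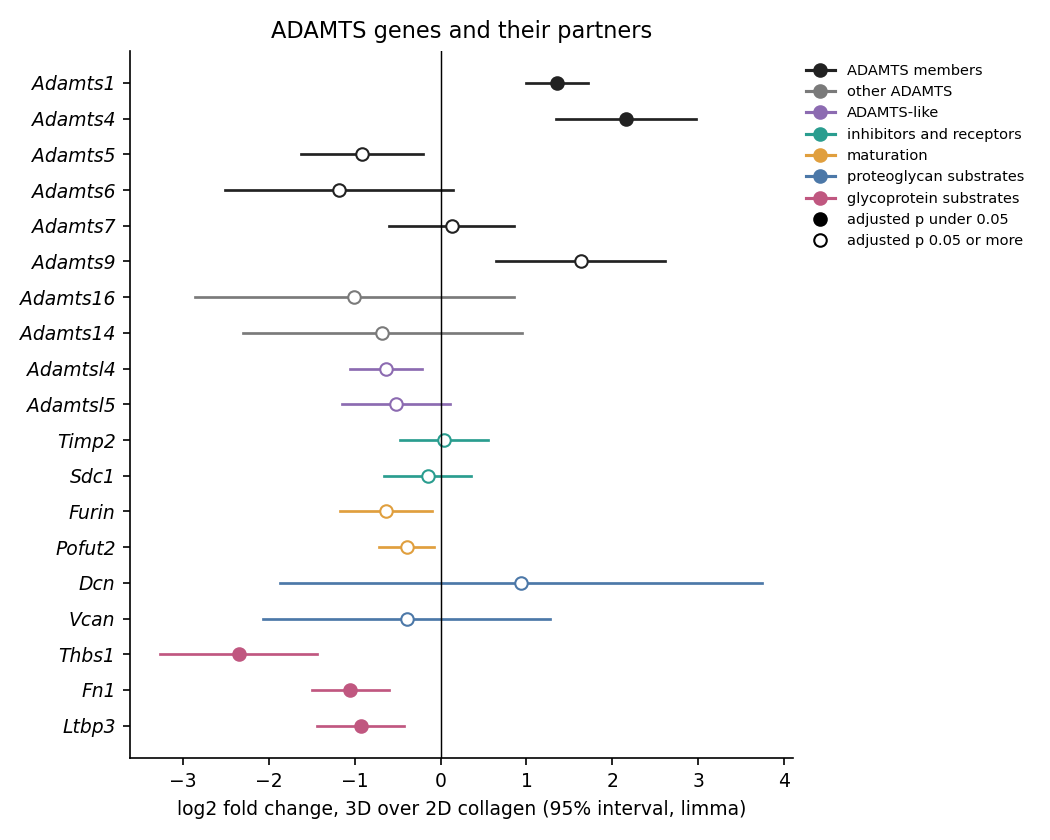
Log2 fold change of 3D over 2D collagen with its 95% interval from limma for the tested ADAMTS members and the named genes of the related lists, coloured by list; filled points passed an adjusted p of 0.05. Adamts1 and Adamts4 are the filled points on the higher side (1.36 and 2.16), and Thbs1, Fn1 and Ltbp3 those on the lower side.

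Over all 62 genes of these related lists, 34 were tested, with 3 lower and 0 higher in limma, 2 lower and 0 higher in edgeR, and 7 lower and 0 higher in DESeq2. Of all 11820 tested genes, 401 were lower and 275 higher in limma, 369 and 308 in edgeR, and 871 and 708 in DESeq2. At an unadjusted limma p under 0.05, 9 of the 34 were lower and 1 higher. Of all tested genes 24.2% had such a p, 12.6% lower and 11.7% higher. Of the 34, 25 had log2 fold changes below 0 and 9 above 0, with a median of −0.37. Over all 11820 tested genes 5738 were below 0 and 6082 above 0.

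The genes most like the risen members over the 8 libraries were found by the Pearson correlation of log2 values, which rests largely on the difference between the groups that these libraries share. For Adamts1 they were the MARVEL-domain gene Cmtm3 (r = 0.995), the autophagy-related gene Atg16l2 (0.992) and Ankrd33b (0.992), with n = 8 libraries. For Adamts4 they were Cmtm3 (0.988), the apoptosis gene Bbc3 (0.987) and the glutathione transferase Gstt3 (0.983). Cmtm3 had 4000, 4257, 3989 and 3121 normalized counts in 3D replicates 1 to 4, against 1613, 1773, 1966 and 1460 in 2D replicates 1 to 4. As in Adamts1 and Adamts4, the lowest library of each group was replicate 4.

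**Figure D4:**
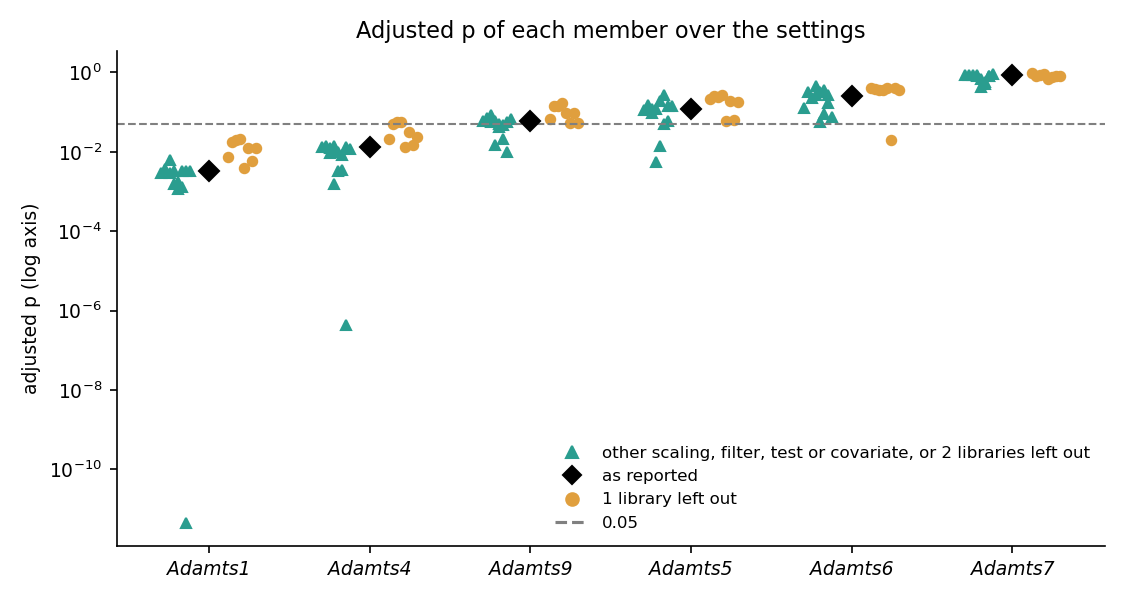
Adjusted p (log axis) of the 6 tested ADAMTS members as reported (black diamonds), under other scalings, filters, tests or covariates or with 2 libraries left out (green triangles), and with 1 library left out (orange circles); the dashed line is 0.05. Adamts1 stayed below the line throughout (highest 0.0207), Adamts4 crossed it in 3 alternatives, and Adamts9 lay on both sides (0.00962 to 0.173).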

How the data were processed

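Total RNA was extracted with TRIzol, cleaned on Qiagen columns and sequenced as Illumina libraries, per the labels' protocols. The submitters' processing notes name HTSeq 0.6.1p1, DESeq2 and the mm10 build. Aligner, annotation, strand setting and filters: not given in the sources used here. Each deposited file holds 1 normalized signal value per gene symbol, made by the authors. In every library 100% of them were whole multiples of 1 read within 0.001 reads, and the divisors matched recomputed median-of-ratios size factors within 3.4e-09, so whole reads were recovered. Depth (15692699 to 25862036 reads) leaves genes of a few reads imprecise.

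Limma 3.58.1 (R 4.3.3, trended and robust variance) was run on log2(normalized count + 1), without covariates, over genes with at least 10 in at least 4 libraries, with Benjamini-Hochberg adjustment. Fold changes on this scale are understated for low genes. RPKM was computed from recovered reads with GENCODE M21 exon lengths (22873 symbols matched, 1920 through an older symbol). The GC trend was a lowess curve (span 30%) against the GC content of the longest transcript in each library. Alternatives were other scalings, pseudocounts of 0.5 and 5, no filter or 50 in 4 libraries, edgeR 4.0.16 and DESeq2 1.42.0 on recovered reads, the replicate block, the GC correction and leaving out each library. Upper-quartile scaling and leaving out both libraries numbered 4 were added after the data were seen. The fit was tested on simulated data.

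The members and gene lists were chosen with earlier results of these data known. Named genes were all members, and of each related list those past the threshold (up to 4) or else the 2 most abundant, and the 3 most correlated genes for the 2 members of smallest adjusted p.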

Additional observations from a re-analysis of the deposited data

Results flagged for a closer look

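Among 38 groups of 4 libraries examined over 19 tested named genes, 2 held a library far from the other 3, where chance gives about 1 in 20. Versican (Vcan) was at 88.7 normalized counts in 3D replicate 4, against 18.1 to 27.9 in the other 3D libraries. Ltbp3 was at 37178 normalized counts in 2D replicate 2, against 21354 to 23724 in the other 2D libraries. None of the 12 groups of the 6 tested ADAMTS members was flagged in this way.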

How the results depend on the processing

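Adamts1 kept its direction and call in all 21 alternatives, Adamts4 in 18 and its direction in all 21. Higher and lower genes numbered 275 and 401 as reported, 498 and 318 with library size alone, 708 and 871 in DESeq2, 481 and 605 with the GC trend removed, and 171 and 276 when both libraries numbered 4 were out. With 1 library left out they ranged from 44 to 267 and from 104 to 370. Higher members then numbered 1 to 2 and lower members 0 to 1, and 1 member (Adamts5) was lower with the GC trend removed. Lower genes of the related lists numbered 7 in DESeq2 and 0 to 2 with 1 library left out. Log2 fold changes turned sign for Adamts7 (−0.14 when both libraries numbered 4 were out) and for Sdc1 (0.0252 with library size alone, 0.0176 with the GC trend removed, with or without the block). Leaving out 1 library at a time gave −0.12 to 0.25 for Adamts7, −0.0857 to 0.2043 for Timp2, −0.0859 to 1.9151 for Dcn and −1.0725 to 0.0160 for Vcan. The cause was not tested.

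Replicate numbers were not taken as pairs, since deviations went together in 3 of the 4 same-numbered pairs and not in all: they correlated at −0.17, 0.37, 0.25 and 0.81, and 3D replicate 1 correlated best with 2D replicate 2. With the replicate block 663 genes were higher and 742 lower, and with the block and the GC correction 995 and 1077. The block gave 1 lower member, Adamts5 (limma adjusted p = 0.0495, and 0.00568 with the GC correction), and Adamts9 passed (0.0216 and 0.0152). Adamtsl4 passed with the block (0.0283), and Furin with the block and the GC correction (0.0433). Related genes were then 5 lower with the block, and 6 lower and 1 higher with the GC correction too. With the longest transcript as length Adamts9 was at 1.35 RPKM in 3D libraries and 0.447 RPKM in 2D libraries. Depth limits Adamts10, Adamts12, Adamts15 and Adamts17.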

Other observations

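Several genes of the matrix lists were lowest in both libraries numbered 4, chosen after their values were seen. Others were highest in both, among them Adamts5, Vcan, Adamtsl4 (1444 in 3D replicate 4 and 2574 in 2D replicate 4) and Timp1 (3563 and 5540). The share of genes with either pattern was not counted. Adamts16 had 19.2 normalized counts in 3D replicate 4 and 11.03 in 2D replicate 4, against 27.9 to 70.0 and 83.6 to 232 in the other libraries of the 3D and 2D groups. Papilin (Papln), an ADAMTS-like matrix protein, had 8.23 in 3D replicate 4 and 11.03 in 2D replicate 4, against 27.1 to 65.7 and 49.0 to 49.8 in the others. Angiotensinogen (Agt), listed among the inhibitors and regulators, had 1798 in 3D replicate 4 and 887 in 2D replicate 4, against 5655 to 11066 and 5192 to 7184 in the others.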
